A study of Mus musculus with 12 samples.

Results

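The transcriptomes of ARG1+ and ARG1- microglia were compared within 6 RNA-seq libraries of a series of 12, those named S1 to S6, which were chosen by their labels and not by any measured value. S1, S2 and S3 (replicates 1, 2 and 13) hold ARG1- microglia, and S4, S5 and S6 (replicates 7, 8 and 15) hold ARG1+ microglia, all from female YARG mice at postnatal day 13. YARG mice carry a yellow fluorescent protein (YFP) cassette behind the stop codon of the endogenous Arg1 gene, so that YFP marks cells in which this locus is or was active, and both populations carry the reporter. Tissue ventral to the corpus callosum, which includes the basal forebrain and striatum, was pooled from several littermates for each library, and cells that were CX3CR1-positive and CD206-negative were sorted by their YFP signal. The other libraries, S7 to S12, hold the same populations of male mice from other tissue pools. Chromosomes X and Y were left out of the tests. The labels do not say which ARG1- and ARG1+ library came from the same pool, so p-values measure the spread between 3 libraries a population, some of which may be technical.

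Microglia are the resident macrophages of the brain. In the undisturbed brain they express a set of receptors and secreted proteins known as the homeostatic signature (P2ry12, Tmem119, Siglech and others), which they lower when they respond to injury or demyelination, while raising genes of lipid handling and phagocytosis such as Apoe, Lpl, Clec7a and Spp1. A related program has been described in microglia of developing white matter. Arginase-1, the product of Arg1, converts arginine to ornithine and urea and is best known as a marker of alternatively activated macrophages.

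The 6 libraries held 28356659 to 60625170 counts. Levels are given as CPM (counts scaled to a common library size with TMM normalization), so 3 counts, the level below which a gene was read as not detected, corresponded to 0.0521 to 0.105 CPM. The deeper libraries were those of ARG1- microglia, whereas the number of genes with at least 1 count was 18808 to 19498 in ARG1- and 19018 to 21734 in ARG1+ libraries. Arg1 itself had 0 counts in S1 to S4, 2 in S5 and 52 in S6, and 0 in each of S7 to S12, so the transcript of the reporter locus did not check the labels in this set. The marker list of microglia was abundant in both populations, with 10 of 10 members tested and a summed level of 50140 to 63380 CPM in ARG1- and 38590 to 45090 CPM in ARG1+ libraries. Genes annotated as lincRNA, antisense, sense-intronic, processed transcript, the provisional class TEC and related classes held 1.586 to 1.818% of counts in ARG1- libraries. In ARG1+ libraries these classes held 2.201 to 2.286%, and their part in the results was not tested. In bulk libraries, fewer cells with a transcript and less of it per cell cannot be told apart.

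Of 14852 genes tested, 953 (6.42%) passed an adjusted p of 0.05 between the populations. The level was higher in ARG1+ microglia for 452 genes (3.04%) and lower for 501 (3.37%). Changes of at least 2-fold were found for 337 of the higher and 180 of the lower genes. For comparison, the 3 ARG1+ libraries all lay above the 3 ARG1- libraries for 16.3% of the genes tested and all below them for 17.1%, and each of the 953 genes belonged to one of these groups. The smallest adjusted p was 0.00364, and the count depended on single libraries. Leaving out one library at a time gave 647 genes without S1, 158 without S3, 11 without S2, 3 each without S4 or S6 and 0 without S5, while 2949 genes had an unadjusted p under 0.05 in this last edgeR fit. All 953 genes kept their sign in each of the 6 fits. The count was 3033 with DESeq2, 600 without a filter on low counts, 410 with a term for the libraries numbered 13 to 16 and 561 with a trend on gene length removed.

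**Figure D1:**
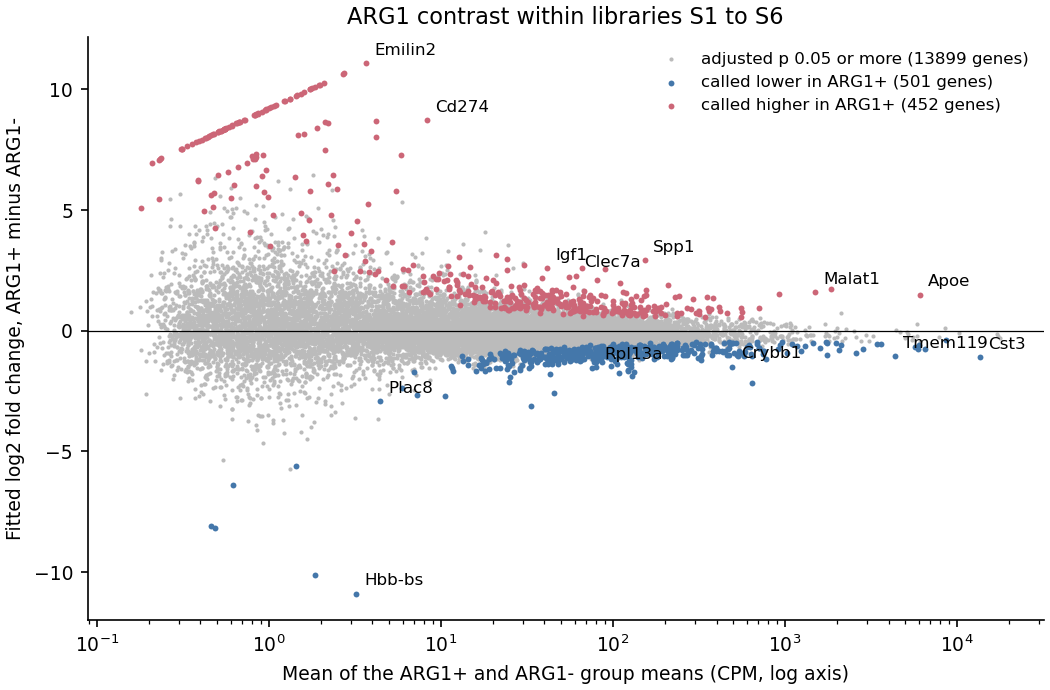
Fitted log2 fold change of each gene tested (ARG1+ minus ARG1-) against its level, the mean of both group means in CPM on a log axis. The 452 genes called higher and 501 called lower are colored. The straight line of points at the upper left holds genes with 0 counts in S1 to S3, whose fitted value depends on the prior count.

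Genes of the lipid-handling and phagocytic program were among those with the smallest p for an increase. Values are given in CPM in the order S1, S2, S3 for ARG1- and S4, S5, S6 for ARG1+ microglia. Apoe, the main lipid carrier secreted by glia, was at 3138, 3491 and 2938 CPM in ARG1- and 8918, 9459 and 8551 CPM in ARG1+ microglia, a 2.81-fold difference (log2 fold change 1.49 ± 0.087, SE; adjusted p = 0.00364). Clec7a, the beta-glucan receptor dectin-1, rose from 21.1, 20.97 and 20.2 to 84.1, 106 and 112 CPM, or 4.86-fold (log2 fold change 2.28 ± 0.17; adjusted p = 0.007396). For both genes the spread within a population was small against the gap between populations, and the groups did not overlap.

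Of 30 members tested of a list of genes raised in disease-associated microglia, 9 rose and 2 fell (36.7% called, against 6.42% of all genes). The median log2 fold change was 0.47 beside 0.007 over all genes tested. Igf1, a growth factor for neurons and oligodendrocytes, rose 6.09-fold, from 9.37, 11.6 and 13.9 to 74.9, 57.95 and 79.3 CPM. Spp1 encodes osteopontin, a secreted matrix phosphoprotein and integrin ligand. Its level was 32.9, 19.1 and 55.6 CPM in ARG1- and 328, 199.7 and 284 CPM in ARG1+ microglia, which was the widest relative change of the list members called (7.53-fold; log2 fold change 2.91 ± 0.40). Lpl, the lipase that releases fatty acids from lipoproteins, rose 3.73-fold, from 86.2, 69.8 and 108 to 343, 290.1 and 352 CPM. Ank, a pyrophosphate transporter, was at 30.5, 23.8 and 24.02 CPM and 99.1, 95.4 and 80.7 CPM. Even the lowest ARG1+ library exceeded the highest ARG1- library by more than the range of the ARG1- libraries for these 4 genes. Csf1, a ligand of the receptor that microglia need to survive, rose from 21.3, 13.5 and 14.98 to 45.2, 53.98 and 62.6 CPM. Axl, a receptor for phosphatidylserine-binding bridging proteins, rose from 76.1, 80.9 and 63.4 to 125, 184 and 178 CPM, and Lyz2, which encodes lysozyme, from 297, 444 and 393 to 627, 667 and 892 CPM. The 2 members that fell encode the receptor and the signaling adaptor of one pathway. Trem2 was at 1695, 1791 and 1633 CPM in ARG1- and 1121, 1178 and 1282 CPM in ARG1+ microglia, and its adaptor Tyrobp at 1314, 1540.5 and 1198 and 684, 605 and 838 CPM.

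The median log2 fold change was 0.48 over 24 genes tested for lipid efflux, transport and storage. Of these 24 genes, 6 rose and none fell (25.0%, against 3.04% of all genes higher). Beside Apoe and Lpl, these were Plin2, which coats lipid droplets, at 70.3, 73.4 and 78.1 CPM in ARG1- and 122, 129.9 and 118 CPM in ARG1+ microglia, the cholesterol exporter Abca1 (251, 216 and 258 against 587, 414 and 408 CPM), the apolipoprotein E receptor Lrp1 (527, 343 and 592 against 1028, 889 and 873 CPM) and Pparg. Pparg, a nuclear receptor for fatty acids, was not detected in S1 to S3 and was at 1.94, 0.593 and 1.37 CPM in S4 to S6, at least 17.7-fold higher against a floor of 3 counts in each library. It passed the filter on low counts only through the ARG1+ libraries, so the share of 25.0% rests in part on that filter. In contrast, none of the 20 genes tested for sterol synthesis and uptake passed the test in this edgeR fit (adjusted p of Msmo1 0.259 and of Hmgcs1 0.961; median log2 fold change of the list -0.16).

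Some genes of secreted growth factors and of the matrix were higher in ARG1+ microglia and others lower. Of 17 growth factors and binding proteins tested, 4 rose (Igf1, Csf1, Hgf and Gdf15) and 1 fell (29.4% called, against 6.42% of all genes). Hgf and Gdf15 had no count in S1 to S3. They passed the filter on low counts only through the ARG1+ libraries, so this share rests in part on that filter. Hgf, the ligand of the receptor MET, was not detected in ARG1- microglia and was at 4.27, 1.71 and 1.49 CPM in ARG1+ microglia, at least 33.9-fold higher. Igfbp4, which binds insulin-like growth factors and limits their action, fell from 374, 235 and 249 to 167, 159 and 125 CPM, so that the growth factor Igf1 and its binding protein moved in opposite directions. Another 9 members of this list lay below the filter. Of 19 matrix genes and proteases tested, 4 rose and 2 fell (31.6% called, against 6.42% of all genes). The risers were Spp1, the macrophage elastase Mmp12, the membrane-bound protease Adam8 and the urokinase receptor Plaur (3.92, 7.15 and 3.75 against 13.1, 23.4 and 15.4 CPM). Mmp12 and Adam8 had no count in S1 to S3 and passed the filter only through the ARG1+ libraries. The share of 31.6% thus also rests in part on the filter. Sparc, a collagen-binding glycoprotein abundant in resting microglia, fell from 8239.8, 6803 and 7121 to 4248, 4469 and 4566 CPM, and Serpinf1, which encodes the secreted factor PEDF, from 189, 174 and 185 to 67.5, 64.5 and 81.5 CPM. Of 15 neuropilins, plexins and semaphorins tested, which act in guidance, 3 rose and none fell (20.0%, against 3.04% of all genes higher). Nrp2, a neuropilin coreceptor, rose 2.98-fold from 17.2, 18.8 and 22.1 to 51.1, 65.6 and 56.7 CPM. Plxnc1 and Plxnd1, the other members called, had at most 8 counts in any ARG1- library and at least 88 and 16 counts in each ARG1+ library. Both passed the filter on low counts only through the ARG1+ libraries, so the share of 20.0% rests in part on that filter. In S7 to S12, Plxnc1 overlapped between populations, at 3.37, 0.240 and 0.748 CPM in ARG1- and 5.68, 3.32 and 8.99 CPM in ARG1+ libraries.

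**Figure D2:**
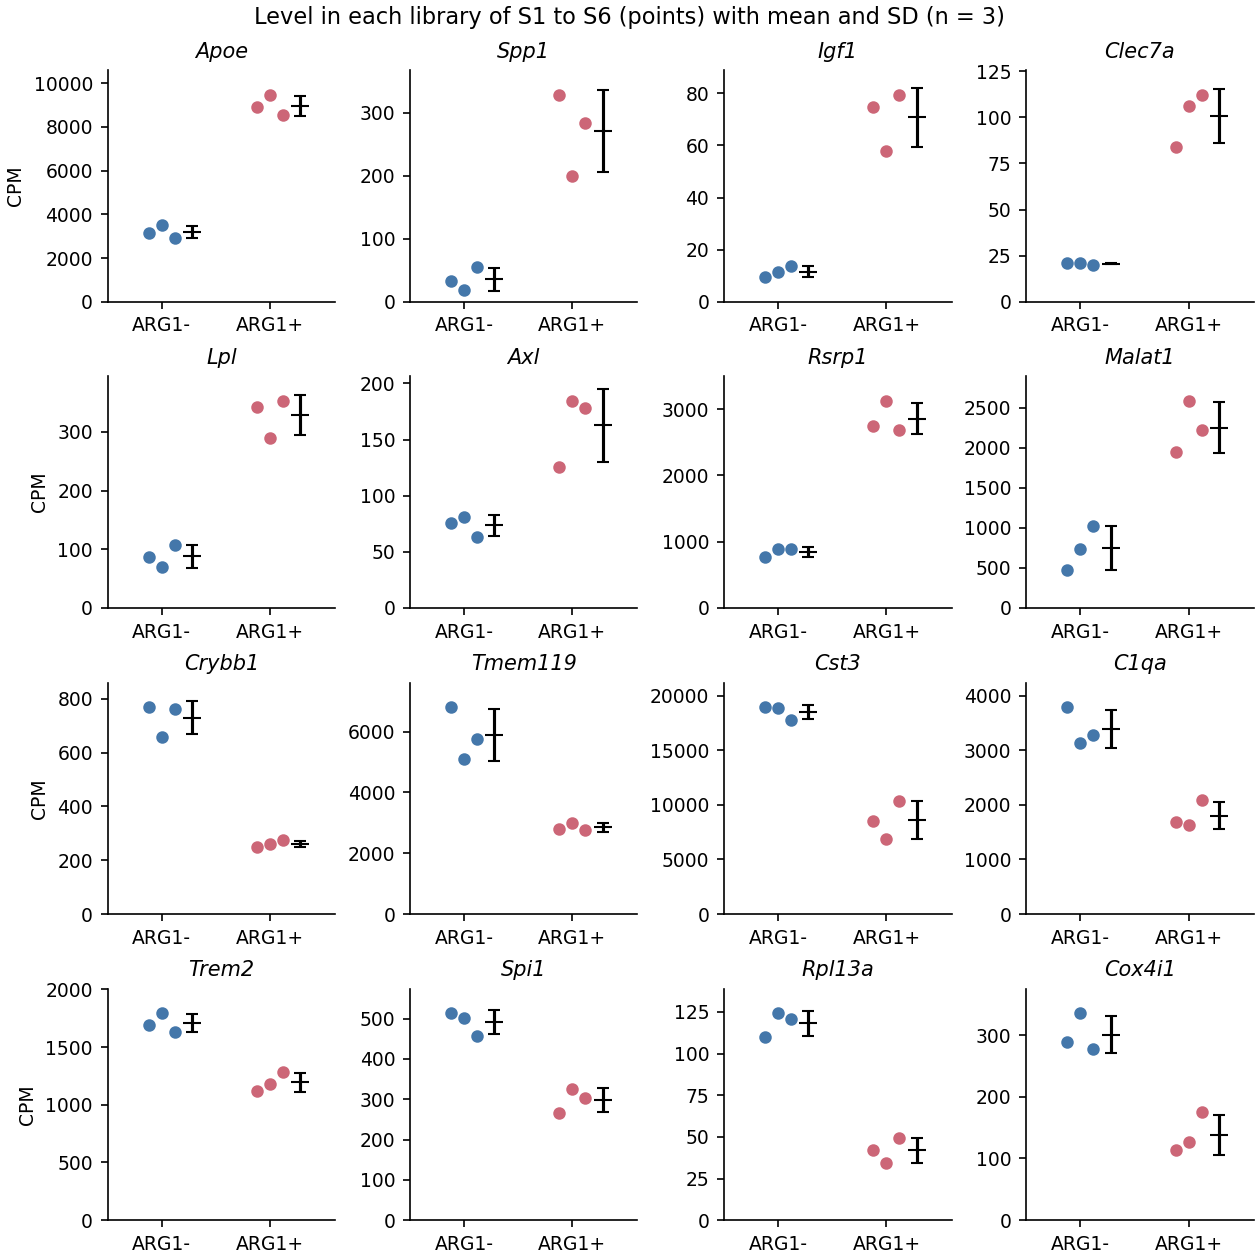
CPM of 16 genes in each library (points; 3 ARG1- and 3 ARG1+), with mean and SD beside them (black; n = 3). Each vertical axis starts at 0. The first 8 genes are higher and the last 8 lower in ARG1+ microglia, and no gene shows overlap between populations.

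Homeostatic microglial genes were lower in ARG1+ microglia. Of 24 members tested, 15 fell and none rose (62.5% called, against 6.42% of all genes), with a median log2 fold change of -0.57. Crybb1, a crystallin with an unclear role in microglia, had the smallest p of all genes that fell, with 768, 658 and 763 CPM in ARG1- and 249.7, 258 and 274 CPM in ARG1+ microglia (2.800-fold lower; log2 fold change -1.49 ± 0.11; adjusted p = 0.007396). Tmem119, a surface protein used as a marker of microglia, was at 6799, 5102 and 5760.2 CPM and 2784, 3010.0 and 2753 CPM. Cst3, the secreted protease inhibitor cystatin C, was at 18935, 18883 and 17772 CPM and 8560.2, 6868 and 10388 CPM, 2.15-fold lower. Aif1, the gene of the IBA1 protein by which microglia are stained, was 2.29-fold lower (363, 450.1 and 542 against 193, 157 and 243 CPM). P2ry12, the ADP receptor that guides microglial processes, changed less (10096, 8694 and 10301 against 7894, 7428 and 7039.9 CPM; log2 fold change -0.38 ± 0.087). The remaining genes that fell were Sparc (above), Ecscr, Ltc4s, Selplg, Rnase4, Siglech, Slc2a5, Olfml3, Fcrls and P2ry13, with log2 fold changes between -1.09 and -0.54. All of them remained at levels far above the detection limit in ARG1+ microglia. The fall did not include every identity gene. The fractalkine receptor Cx3cr1 was at 5305, 5081 and 5352 CPM in ARG1- and 5339, 5578 and 4194 CPM in ARG1+ microglia (adjusted p = 0.807), the colony-stimulating factor receptor Csf1r at 24006, 16978 and 15052 and 18128, 16165 and 13953 CPM (adjusted p = 0.524), and the transcription factor Sall1 at 369.7, 323 and 354 and 505, 400.5 and 401 CPM (adjusted p = 0.189), and these ranges overlapped for Cx3cr1 and Csf1r but not for Sall1.

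Complement and surface receptors moved both ways. Of 16 complement genes tested, 3 fell and 1 rose (25% called, against 6.42% of all genes). The genes for the 3 chains of C1q, the initiator of the classical pathway and a tag for synapse removal, all fell. C1qa was at 3786, 3125 and 3273 CPM in ARG1- and 1691, 1634 and 2086 CPM in ARG1+ microglia, and the log2 fold changes were -0.91, -0.75 and -0.67 for C1qa, C1qb and C1qc. C3ar1, the receptor for the anaphylatoxin C3a, rose 1.98-fold from 312, 270.3 and 250.2 to 522, 564 and 560.0 CPM. The list median was 0.34, opposite in sign to the C1q chains. Of 23 phagocytic and scavenger receptors tested, 4 rose (Clec7a, Axl, Lrp1 and the scavenger collectin Colec12) and 4 fell. The share called was 34.8%, against 6.42% of all genes. Colec12 had 0, 1 and 0 counts in the ARG1- and 111, 162 and 131 counts in the ARG1+ libraries. It passed the filter on low counts only through the ARG1+ libraries, so this share rests in part on that filter. Those that fell were Trem2, the lipopolysaccharide coreceptor Cd14 (422, 381 and 423 against 285, 265 and 285 CPM) and the immunoglobulin receptors Fcgr1 (471, 405 and 369 against 267, 231 and 230.0 CPM) and Fcgr3 (1868, 2165 and 2159.5 against 1336, 1318 and 1641 CPM). The chemokine lists held 1 call each, near the 6.42% called of all genes. Ccl3 rose 3.93-fold from 6.34, 12.7 and 6.29 to 29.8, 31.03 and 38.8 CPM, as 1 of 13 chemokine ligands tested (7.69%). The chemokine receptor Ccr1 fell 2.82-fold from 228, 129 and 204 to 84.7, 51.4 and 63.3 CPM, as 1 of 9 chemokine receptors tested (11.1%).

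Of 29 myeloid and microglial transcription factors tested, 3 rose and 2 fell (17.2% called, against 6.42% of all genes). Runx1, a regulator of hematopoiesis and of early microglia, was at 29.3, 26.4 and 26.3 CPM in ARG1- and 77.2, 76.2 and 84.5 CPM in ARG1+ microglia (2.902-fold). Mitf, a helix-loop-helix factor of the family that controls lysosomal genes, rose 4.83-fold from 2.79, 2.97 and 2.38 to 17.8, 11.2 and 10.3 CPM. Spi1, which encodes PU.1, the factor required for all myeloid cells, fell from 513, 503 and 458 to 267, 326 and 303 CPM (log2 fold change -0.72 ± 0.12; adjusted p = 0.0281). Cebpd, a factor of inflammatory responses, fell from 153, 137 and 142 to 56.7, 63.4 and 69.8 CPM.

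Stretches before the start sites of a few of these genes are shown because the factors that moved bind short, well known letters. RefSeq start regions (GRCm38.p6) were matched by symbol for 9725 of the 14852 genes tested, and the 250 bases before each start were searched on both strands for TGTGGTT (a RUNX site), GAGGAAGT (a PU.1 site), TATAAA (the TATA box) and CACGTG (an E-box, bound by helix-loop-helix factors). These letters do not overlap each other, and these 4 genes were picked after their values and letters had been seen. The sequences run 5′ to 3′ on the strand of the gene, with matches in capitals, and those of Spp1 and Mitf (both higher) come first, followed by those of Crybb1 and Rpl13a (both lower).
Spp1, chr5:104434861-104435110, plus strand: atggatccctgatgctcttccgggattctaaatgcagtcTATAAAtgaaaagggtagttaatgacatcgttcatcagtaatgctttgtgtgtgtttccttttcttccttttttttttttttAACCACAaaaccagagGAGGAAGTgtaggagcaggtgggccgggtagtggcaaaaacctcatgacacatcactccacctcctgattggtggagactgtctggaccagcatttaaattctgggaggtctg
Mitf, chr6:97806808-97807057, plus strand: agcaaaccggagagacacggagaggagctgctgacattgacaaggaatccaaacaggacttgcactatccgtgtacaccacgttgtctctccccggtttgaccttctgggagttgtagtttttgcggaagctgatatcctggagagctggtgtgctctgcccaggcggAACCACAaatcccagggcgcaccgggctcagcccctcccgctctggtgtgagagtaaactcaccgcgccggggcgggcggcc
Crybb1, chr5:112255570-112255819, plus strand: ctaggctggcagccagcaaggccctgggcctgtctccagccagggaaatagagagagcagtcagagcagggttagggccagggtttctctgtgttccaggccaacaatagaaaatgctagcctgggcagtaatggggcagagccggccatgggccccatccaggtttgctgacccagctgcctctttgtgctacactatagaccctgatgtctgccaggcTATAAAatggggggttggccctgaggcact
Rpl13a, chr7:45128746-45128995, minus strand: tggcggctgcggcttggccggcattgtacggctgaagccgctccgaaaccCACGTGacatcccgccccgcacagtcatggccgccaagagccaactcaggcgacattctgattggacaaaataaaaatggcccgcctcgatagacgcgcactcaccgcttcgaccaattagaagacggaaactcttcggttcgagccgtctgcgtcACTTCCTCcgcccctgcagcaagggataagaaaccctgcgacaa

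Counting back from -1 at the base before the start, the Spp1 stretch holds the TATA letters at -211 to -206, the RUNX letters at -129 to -123 and the PU.1 letters at -113 to -106. Mitf holds the RUNX letters at -82 to -76, Crybb1 the TATA letters at -30 to -25, and Rpl13a the E-box at -200 to -195 and the PU.1 letters at -44 to -37. The capitals AACCACA and ACTTCCTC are the RUNX and PU.1 letters read on the other strand. The RUNX letters were present in 3.19% of all 9725 stretches, in 2.74% of the 292 of genes that rose and in 3.55% of the 366 of genes that fell. The PU.1 letters were present in 2.56%, 3.77% and 3.01%, the TATA letters in 6.21%, 6.16% and 6.28%, and the E-box in 8.57%, 7.53% and 8.47%, respectively. For these 4 motifs the shares lay close together. The AP-1 letters (TGACTCA or TGAGTCA), found in none of the 4 stretches shown, were present in 2.79% of all stretches, 4.11% of those of genes that rose and 4.64% of those of genes that fell. The letters CCGGAAGT, a site of other ETS factors that shares the core GGAAGT with that of PU.1, were present in 6.48%, 2.74% and 7.65%. Among the gene lists the share of these letters varied in both directions of change. In lists with genes that only fell, it was 14.3% of 56 stretches of ribosomal protein genes, 17.4% of 23 of the actin list and 5.0% of 60 of oxidative phosphorylation. In lists with genes that only rose, it was 11.4% of 35 of a list of detained-intron genes and 0.0% of 30 of chromatin modifiers and remodelers. None of the 24 stretches of the disease-associated list held them. A match is a description of the letters only.

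Many genes for protein synthesis, energy metabolism and protein turnover were lower in ARG1+ microglia. Of 76 genes tested for cytosolic ribosomal proteins, 49 fell and none rose (64.5%, against 3.37% of all genes lower), with a median log2 fold change of -1.16, and all 3 ARG1+ libraries lay below all ARG1- libraries for 71. Another 4 members lie on X or Y and 2 were below the filter. Rpl13a, a protein of the large subunit, was at 109.8, 124 and 121 CPM in ARG1- and 42.02, 34.3 and 49.3 CPM in ARG1+ microglia (2.82-fold lower; adjusted p = 0.0227), although its gene also holds small nucleolar RNA genes. Rplp0 of the ribosomal stalk was at 273, 284 and 277 and 123, 126 and 161 CPM, and Rps3 of the small subunit at 278, 343 and 284 and 134, 113 and 158 CPM. The size of the shift varied between libraries. The median over the 76 genes, relative to the ARG1- mean on the log2 scale, was -0.26, 0.13 and 0.12 in S1 to S3 and -1.25, -1.43 and -0.78 in S4 to S6. Of 62 translation factors tested, 13 fell and none rose (21%, against 3.37% of all genes lower). Among those that fell were the elongation factor Eef1a1 (837, 1213 and 1155 against 449, 442 and 553 CPM) and Eif3h, a subunit of initiation factor 3 (79.2, 102 and 91.8 against 34.04, 34.9 and 44.6 CPM). Mitochondrial ribosomal proteins had a median log2 fold change of -0.59, with 6 of 78 called, all lower (7.69%, against 3.37% of all genes lower).

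Of 75 nuclear genes tested for oxidative phosphorylation, 24 fell and none rose (32.0% called; median log2 fold change -0.80). Cox4i1, a subunit of cytochrome c oxidase, was at 289, 335 and 278 CPM in ARG1- and 114, 126 and 175 CPM in ARG1+ microglia, and Atp5a1, the catalytic-core alpha subunit of ATP synthase, at 553, 584 and 623 and 317, 390.3 and 361 CPM. None of the 8 protein-coding genes of the mitochondrial genome that were tested passed in this edgeR fit, with overlapping values such as 709, 1463 and 1531 and 901, 716 and 942 CPM for mt-Cytb. Of 38 proteasome subunits tested, 20 fell and none rose (52.6%; median -0.70), as for Psma7 of the core particle (149.7, 179.7 and 163 against 73.6, 82.01 and 90.8 CPM; log2 fold change -0.999 ± 0.14). Psmb8, a subunit of the immunoproteasome, fell from 183, 242 and 209.9 to 107, 130.0 and 134 CPM. It was the only call among 17 genes of antigen presentation (5.88%, near the 6.42% called of all genes). Smaller shares fell in 5 further lists, beside 3.37% of all genes lower. They were genes for actin and its branching (7 of 29, 24.1%), chaperones (4 of 26, 15.4%, all subunits of the CCT chaperonin) and the vacuolar proton pump (4 of 18, 22.2%). The others were glycolysis and glucose uptake (3 of 23, 13%) and histones (5 of 37, 13.5%, with 42 further members below the filter). The actin regulators Cfl1 and Pfn1 were at 709, 670.3 and 705 against 351, 367 and 431 CPM and 803, 682 and 722 against 359, 377 and 437 CPM. No gene of these 5 lists rose.

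Genes known to keep detained introns were higher in ARG1+ microglia. The list of these genes, whose introns are spliced slowly in the nucleus, also holds CLK kinases and cyclins L and had 39 members tested, of which 17 rose and none fell (43.6%; median log2 fold change 0.75). Rsrp1, an arginine- and serine-rich protein, was at 762, 892 and 895 CPM in ARG1- and 2753, 3119.9 and 2687 CPM in ARG1+ microglia (3.36-fold; log2 fold change 1.75 ± 0.11; adjusted p = 0.00364). Ccnl2, a cyclin of splicing-associated kinases, rose from 127, 142 and 120.0 to 349, 369.7 and 337 CPM, and Srrm1, a splicing coactivator, from 61.9, 60.8 and 58.9 to 199, 164 and 168 CPM. Leng8 rose 3.96-fold, and Clk4, a kinase of splicing factors, 2.32-fold. By contrast, core spliceosome and hnRNP proteins were mostly not called, with 1 higher (Hnrnph1) and 3 lower (U2af1, Snrpb and Sf3b5) of 36 tested (median -0.26). Malat1, a long RNA retained in nuclear speckles, rose 3.02-fold from 478, 734 and 1026 to 1952, 2585 and 2222 CPM, the only call among 19 nuclear and small nucleolar host RNAs (5.26%, against 6.42% of all genes). Of 45 chromatin modifiers and remodelers (median 0.71), 8 rose and none fell (17.8%, against 3.04% of all genes higher). They included the corepressor Ncor1 (67.7, 64.4 and 78.9 against 143, 157 and 168 CPM), the methylcytosine oxidase Tet3 (21.04, 17.4 and 25.4 against 64.8, 51.3 and 60.8 CPM) and the acetyltransferase Crebbp (23.1, 15.8 and 26.96 against 50.3, 60.04 and 57.2 CPM).

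**Figure D3:**
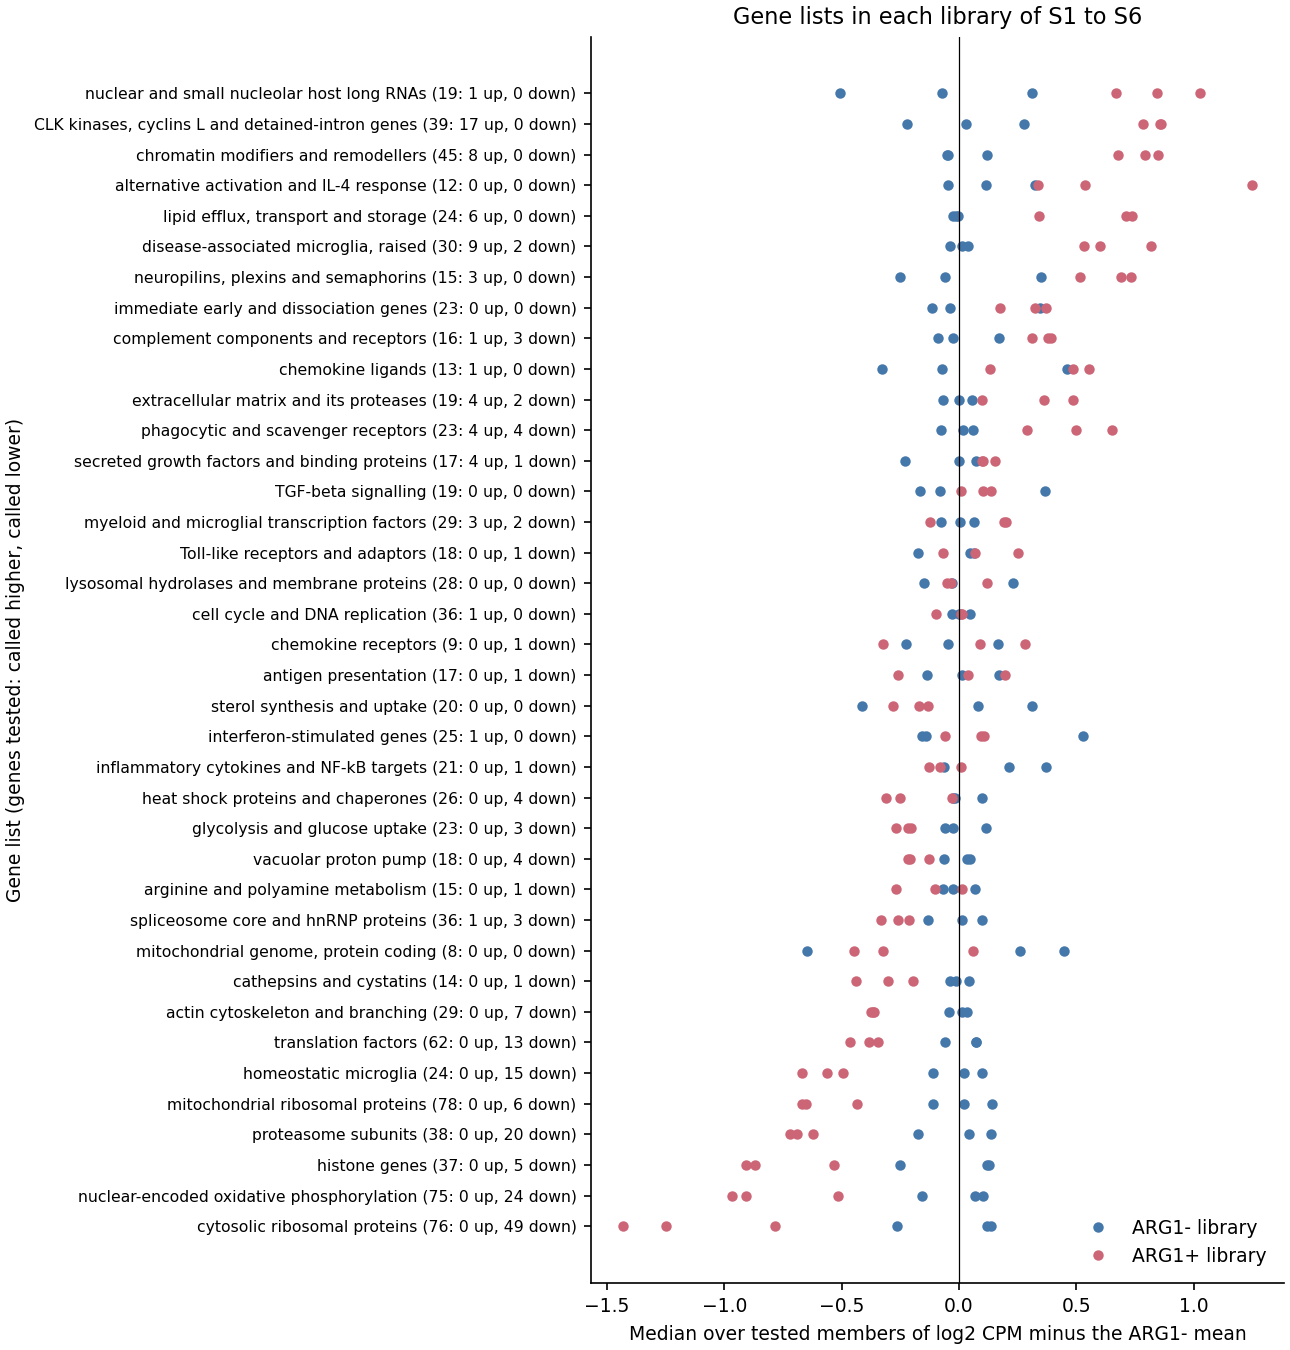
Each row is a gene list, and each point is a library of S1 to S6, placed at the median over the tested members of log2 CPM minus the ARG1- mean. The 38 lists of gene function, without the cell type marker lists, are ordered by their median log2 fold change, from cytosolic ribosomal proteins (-1.16) at the bottom to nuclear and small nucleolar host long RNAs (0.79) at the top, with members tested and called in parentheses.

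The direction of change was related to transcript length across genes. The genes tested were divided by exon length into 5 groups of equal size. In the group with the shortest exons (39 to 1596 bases), 46 rose and 150 fell, with a median log2 fold change of -0.19. In the group with the longest (6730 to 123179 bases), 197 rose and 20 fell, with a median of 0.33. The median exon length was 1835 bases for ribosomal proteins, 1801 for oxidative phosphorylation, 2814 for the proteasome, 6949 for the detained-intron list and 10444 for chromatin genes. Removing a smooth trend on length within each library gave 258 higher and 303 lower genes, 472 of which were among the 953. Ribosomal proteins then had 22 lower (median -0.92), oxidative phosphorylation 6 (-0.60), the proteasome 10 (-0.49) and homeostatic genes 10 (-0.45). The disease-associated list had 9 higher and 2 lower (0.54), and the detained-intron list 11 higher and 1 lower (0.53). Of the chromatin genes, 1 was called, in the higher direction (0.26). The medians of these 7 lists kept their sign.

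**Figure D4:**
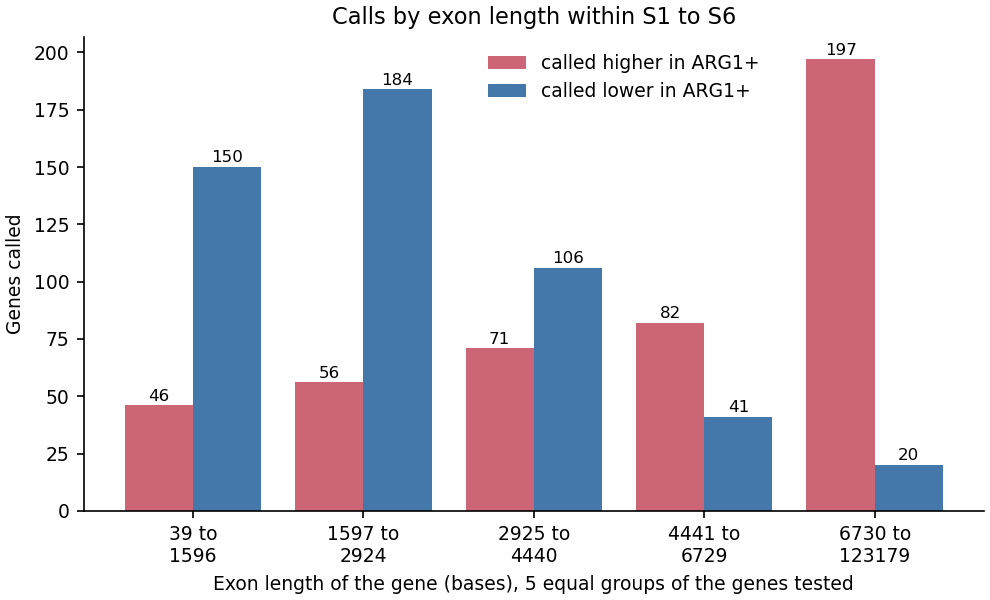
Number of genes called higher or lower in ARG1+ microglia in each of 5 equal groups of the genes tested by exon length in bases, the union of all annotated exons. Calls were mostly lower in the 3 groups of shorter genes and mostly higher in the 2 groups of longer genes.

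Within S1 to S6, some genes were detected in one population only. The 10 protein-coding genes with the largest fitted increase had 0 counts in all 3 ARG1- libraries and at least 10 counts in each ARG1+ library. Emilin2, a matrix glycoprotein, was at 4.01, 5.47 and 12.4 CPM in ARG1+ microglia, at least 99.5-fold higher than the floor. Dok2, an adaptor of tyrosine kinase signaling, was at 8.37, 2.82 and 5.23 CPM (at least 74.7-fold), and Mmp12 at 3.49, 9.41 and 3.33 CPM (at least 73.8-fold). Adam8 was at 1.49, 2.999 and 5.86 CPM, the lysosomal channel Mcoln3 at 5.399, 0.697 and 3.48 CPM, the phosphatase Ptpn7 at 2.62, 6.87 and 2.38 CPM and the stress-induced cytokine Gdf15 at 5.11, 0.628 and 2.85 CPM, and Rgs11, St8sia6 and Spata46 complete the 10. These levels are low and varied up to several-fold between ARG1+ libraries. In S7 to S12, Mmp12, Adam8 and Mcoln3 had no count in the 3 ARG1- libraries, but others of the 10 were detected there, with St8sia6 at 7.85 CPM and Spata46 at 3.83 CPM in S9, and Ptpn7 at 2.901 CPM, Dok2 at 1.64 CPM and Gdf15 at 0.711 CPM in S7. Of the 452 genes called higher, 109 had at most 3 counts in each ARG1- library, and of the 501 called lower, 5 had at most 3 counts in each ARG1+ library. Cd274, the gene of the checkpoint ligand PD-L1, had 0, 0 and 5 counts in the ARG1- and 835, 217 and 509 counts in the ARG1+ libraries, although an antisense gene, AC119228.1, overlaps it and the strand setting of the counting is not given in the sources used here. Orc1, a subunit of the replication origin complex, had 5, 1 and 4 counts against 199, 109 and 149, while no other of 36 cell cycle genes tested passed.

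In the other direction, the genes with the largest fitted decreases included the hemoglobin genes Hbb-bs (2.39, 12.9 and 3.998 CPM in ARG1-, 0 in ARG1+ libraries; at least 66.3-fold lower) and Hba-a1 (0.674, 1.72 and 0.539 CPM; at least 10.1-fold lower). Tril, an accessory protein of Toll-like receptors, was at 1.35, 3.17 and 6.55 CPM in ARG1- and not detected in ARG1+ libraries (at least 38.1-fold lower), as was Mnd1, a meiotic recombination protein (0.551, 1.29 and 0.921 CPM). Mnd1 had the opposite pattern in S7 to S12, with no count in ARG1- and 0.433, 0.172 and 0.275 CPM in ARG1+ libraries (adjusted p of the difference between the sets = 0.204 in edgeR), and both hemoglobin genes had counts there in 2 of the 3 ARG1+ libraries. Cacnb3, a calcium channel subunit, had 46, 29 and 87 counts against 0, 1 and 0, and Schip1 had 100, 67 and 212 counts against 0, 4 and 1. Plac8, found in monocytes and other leukocytes, fell 7.601-fold from 5.88, 9.23 and 8.396 to 1.07, 0.976 and 1.04 CPM. The replication-dependent histone genes Hist1h1b and Hist1h4d fell from 17.1, 7.099 and 13.6 to 1.33, 1.88 and 2.73 CPM and from 9.55, 6.92 and 13.5 to 1.97, 1.01 and 2.79 CPM, and Khdrbs3, an RNA-binding protein, from 41.7, 34.9 and 44.2 to 14.03, 6.66 and 7.31 CPM. Among the genes of smallest p that fell were also Ckb, the cytosolic creatine kinase (2623, 2238 and 2152 against 1146, 1179 and 1152 CPM), and Cd53, a leukocyte tetraspanin (2445, 2753 and 2634 against 1533, 1489 and 1478 CPM). Lars2 and Mir6236 were in this group as well, at 171, 180.2 and 253 against 51.5, 58.6 and 56.1 CPM and 65.4, 50.5 and 63.4 against 5.62, 5.58 and 9.51 CPM. Mir6236 is annotated as a miRNA hairpin and libraries of this kind do not capture mature miRNAs, so its value counts reads from longer RNA.

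The lists of macrophage activation and lysosomal genes in this paragraph held 0 or 1 call each, shares of 0 to 7.14% beside 6.42% of all genes. Shares were larger in lists given above, at 22.2% for the vacuolar proton pump (4 of 18, all lower), 11.1% for chemokine receptors and 7.69% for chemokine ligands. Of 12 tested genes of alternative activation and the IL-4 response, none passed in this edgeR fit, although 9 had a positive fitted value and the median log2 fold change was 0.498, and the classical markers Chil3 and Retnla had no count in any of the 6 libraries. Of 15 genes tested for arginine and polyamine metabolism, only Oaz1, the inhibitor of ornithine decarboxylase, was called (236, 229.9 and 209 against 118, 125 and 144 CPM, lower). Of 25 interferon-stimulated genes, 1 rose (Ifi44, not detected in ARG1- and 2.33, 1.92 and 0.713 CPM in ARG1+ microglia). Of 21 cytokine and NF-kB target genes, 1 fell (Nfkbia, the inhibitor of NF-kB, 96.3, 109 and 95.7 against 59.4, 58.5 and 70.4 CPM), and of 18 Toll-like receptors and adaptors 1 fell (Cd14). None of 23 immediate early genes (median 0.36), 19 genes of TGF-beta signaling or 28 lysosomal hydrolases and membrane proteins passed. The lysosomal precursor genes Grn and Psap lay at 5299, 4265 and 3684 against 4284, 5218 and 3878 CPM and 3224, 2458 and 1946 against 2252, 2624 and 2669.7 CPM, with overlapping ranges. Of 14 cathepsins and cystatins, Cst3 alone was called. With 3 libraries a population, a gene that missed the threshold may still differ.

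Markers of other cells were low, and some moved with the contrast. The sort excluded cells with CD206 protein, whereas the transcript of its gene, Mrc1, was at 137, 102 and 141 CPM in ARG1- and 145, 105 and 143 CPM in ARG1+ microglia. Of 10 border macrophage markers, 6 were tested and none passed in this edgeR fit. Of these 6, 5 had a positive fitted value, and the median log2 fold change was 0.36. The summed level was 112 to 148 CPM in ARG1- and 120 to 169 CPM in ARG1+ libraries. Folr2 was at 4.38, 4.03 and 2.89 CPM in ARG1- and 11.2, 5.27 and 15.5 CPM in ARG1+ libraries (adjusted p = 0.105 in edgeR). In S7 to S12, Folr2 was at 1.94, 1.58 and 2.68 against 9.19, 4.46 and 6.64 CPM. The list median, relative to the ARG1- mean on the log2 scale, varied between libraries (-0.78, 0.41 and 1.62 in S4 to S6). Lyve1 and Cd163 had no count in 5 of the 6 libraries. Of 8 monocyte markers, 4 were tested and Plac8 fell, with summed levels of 10.6 to 14.4 and 5.17 to 14.6 CPM and Ly6c2 and Chil3 at 0 throughout. The erythroid list summed to 3.43 to 18.0 CPM in ARG1- and 0 CPM in ARG1+ libraries, with both members tested called lower. Cd79b, a B cell receptor subunit that microglia also express, fell from 159, 181 and 137 to 70.1, 83.1 and 68.8 CPM, and the other 3 B cell markers were below the filter. Flt1, an endothelial receptor of the growth factor VEGF, had 0, 1 and 8 counts against 140, 83 and 93, as 1 of 5 endothelial and mural markers tested. It passed the filter on low counts only through the ARG1+ libraries. In S7 to S12, Flt1 overlapped between populations, at 0.493, 0.0343 and 2.77 against 0, 1.87 and 2.63 CPM. Cldn5, the tight junction marker of endothelial cells, was at 0 in all 6 libraries of S1 to S6. No marker of neurons (5 tested), oligodendrocytes (8), astrocytes (7), neutrophils (1) or ependymal cells (1) passed in this edgeR fit, and all 8 T and NK cell markers were below the filter. None of the tested neuron and oligodendrocyte markers had a positive fitted value, with median log2 fold changes of -0.85 and -1.28. Of the 7 astrocyte markers, 3 had one (median -0.43). The oligodendrocyte marker Cnp lay close to the limit (adjusted p = 0.0519 in edgeR), without overlap between populations. Summed levels were 7.34 to 20.9 against 2.39 to 11.7 CPM for neurons, 271 to 365 against 171 to 254 CPM for oligodendrocytes, and 173 to 233 against 136 to 154 CPM for astrocytes. The part of these cells in the results was not tested.

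The contrast was then read in S7 to S12, which share no library with S1 to S6. In these, edgeR called 0 of 14883 genes (smallest adjusted p = 0.0516), with 2975 at an unadjusted p under 0.05 and 2132 called by DESeq2. Of the 953 genes called in S1 to S6, 918 were tested in S7 to S12, and 859 of them (93.6%) had a fold change of the same sign, against 69% of all genes tested in both. The share was 98.4% for genes that fell (490 of 498) and 87.9% for genes that rose (369 of 420). The median absolute log2 fold change of these 918 genes was 1.03 in S1 to S6, in which they were selected, and 0.73 in S7 to S12. Apoe had log2 fold changes of 1.49 and 1.97 in S1 to S6 and S7 to S12, Spp1 2.91 and 2.14, Igf1 2.61 and 1.76, Crybb1 -1.49 and -0.91, Rpl13a -1.50 and -1.35, and Runx1 1.54 and 0.50. Among the lists, the medians in S7 to S12 were -1.21 for ribosomal proteins, -0.88 for oxidative phosphorylation, -0.43 for homeostatic genes, 0.58 for disease-associated genes and 0.92 for lipid handling, each with the sign seen in S1 to S6. Of 38 lists of gene function, 31 had a median of the same sign in both sets and 7 did not. The latter included nuclear and small nucleolar host RNAs (0.79 in S1 to S6 and -0.096 in S7 to S12), sterol synthesis and uptake (-0.16 and 0.302), chemokine ligands (0.29 and -0.27) and NF-kB targets (-0.19 and 0.31). The genes of the mitochondrial genome had medians of -0.29 and -1.47. The detained-intron list had a median of 0.14 in S7 to S12 beside 0.75, and Malat1 a log2 fold change of 0.26 beside 1.59 (adjusted p of the difference = 0.492 in edgeR). Differences of list medians between the sets were not tested.

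**Figure D5:**
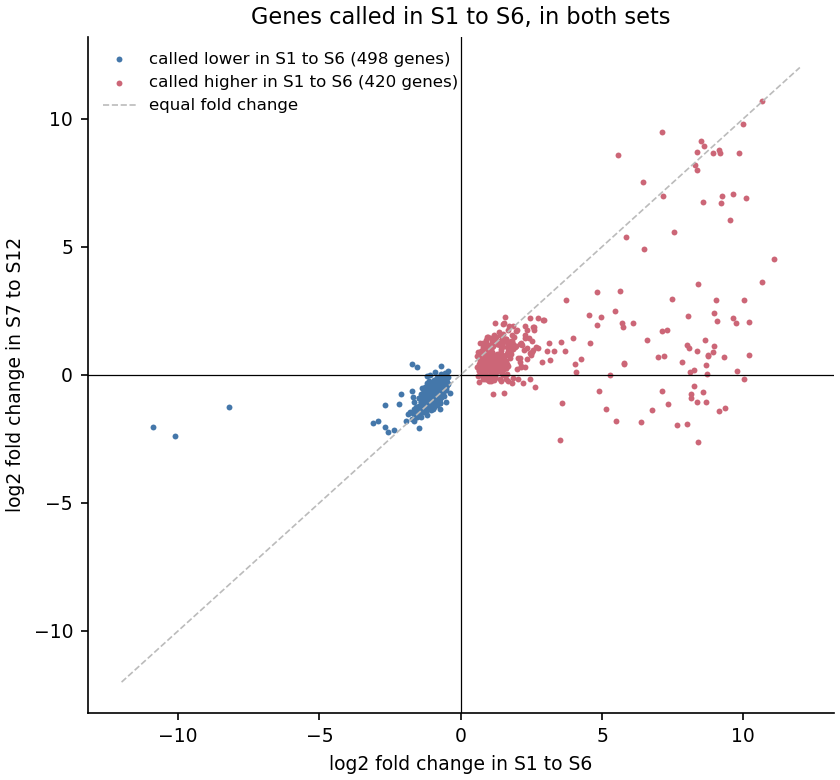
Log2 fold change (ARG1+ minus ARG1-) in S7 to S12 against that in S1 to S6 for the 918 genes called in S1 to S6 and tested in both. Most points share their sign (859), while a band of genes with large fitted values in S1 to S6, which had few or no counts in ARG1- libraries there, lies near 0 on the vertical axis.

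The difference between both sets was tested as an interaction over all 12 libraries. It called 0 of 16380 genes in edgeR (smallest adjusted p = 0.133; 1492 genes at an unadjusted p under 0.05, of which 240 were among the 953) and 301 in DESeq2. The smallest p was that of Cd274, which lay at 0, 0 and 0.0869 CPM and 26.99, 7.57 and 15.1 CPM in S1 to S6 but at 2.33, 6.35 and 5.05 CPM in ARG1- and 3.78, 5.64 and 4.62 CPM in ARG1+ libraries of S7 to S12. Its antisense neighbor AC119228.1 had the same pattern. Ldlrad3 and Nedd9 were detected in all libraries of S1 to S6, with 3.18, 1.04 and 6.796 against 4.69, 8.68 and 9.16 CPM for Nedd9, but had no count in the ARG1- libraries of S7 to S12 and 6.48, 10.5 and 7.95 CPM of Nedd9 in the ARG1+ libraries. None of these differences passed the adjusted limit. The sets differ in the sex on their labels and in their tissue pools, which cannot be told apart. Whether the sets share litters is not given in the sources used here.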

How the data were processed

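RNA of sorted ARG1-YFP+ and ARG1-YFP- microglia had been amplified (SMART-Seq v4), made into Nextera XT libraries and sequenced as single-end reads. The authors aligned reads with STAR 2.6.1d to GRCm38, counted them on genes with featureCounts 1.5.1 and deposited the raw counts of 55487 genes, 1 column per library, without normalization. They compared groups with DESeq2 1.28.1 (versions per the submitters' processing notes). The counting strand is not given in the sources used here, and no molecular identifiers are described, so amplification error is not covered by the counts.

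Here the deposited counts of S1 to S6 were tested in R 4.3.3 with edgeR 4.0.16. GENCODE M21 matched 55227 identifiers, and the 260 without a match (0.0271 to 0.041% of counts in these 6 libraries), which have no known position, and genes on X and Y were left out. Genes were filtered with filterByExpr and normalized by TMM, and ARG1+ was compared with ARG1- by the quasi-likelihood test (Benjamini-Hochberg over all 14852 genes, limit 0.05). Standard errors were derived from each fold change and its test statistic. The S7 to S12 contrast and an interaction over 12 libraries were fitted alike. Alternatives, including DESeq2 1.42.0, are given in the closing section. Replicate libraries differed by 40.7 to 125 times their chi-square degrees of freedom, so each counted as 1 replicate.

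Members and the 50 gene lists were chosen with earlier results of these data known. Named genes are Arg1, the 10 protein-coding genes with the largest fitted change in each direction (at least 10 counts in each library of the higher group), the 5 of smallest p in each direction and in the interaction, and the 3 called members of smallest p per direction in each list, or its 2 most abundant if none was called. Others were named after their values were seen, and some genes that the rule names are not reported here. Levels (CPM, edgeR) carry counting error, smaller where depth is greater, and 3 counts were taken as the floor. Start regions came from RefSeq.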

Additional observations from a re-analysis of the deposited data

How the results depend on the processing

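The number of genes called in S1 to S6 (953) stayed within 1.5 times under DESeq2's size factors (899), upper-quartile factors (955), a minimum of 10 counts in every library (1291), inclusion of X and Y (990) and a joint fit of 12 libraries (955). It moved to 600 without a filter on low counts, 3033 with the Wald test of DESeq2, 410 with a term for the libraries numbered 13 to 16 and 561 after removal of the length trend, and lay between 0 and 647 when single libraries were left out. All 953 kept their sign in these fits where tested, except 5 after removal of the length trend. The median of all genes, 0.007 in the main comparison, was 0.114 in the DESeq2 fit, where 1617 genes were higher and 1416 lower. The S7 to S12 contrast had 0 calls, but 1 with DESeq2's size factors, without a filter, with X and Y kept or with the length trend removed, 503 with the count minimum, 772 in the joint fit and 2132 with DESeq2. Leaving out single libraries gave 0 to 1 (1 without ARG1- replicate 6). The interaction had 301 calls with DESeq2 and 0 to 10 without single libraries (3 without ARG1- replicate 13 and 10 without ARG1- replicate 5). The share of called genes with the same direction in S7 to S12 was 86.81% for DESeq2 and 94.94 to 100% without single libraries, from far fewer genes in most of these fits. The cause of these changes was not tested. No paired analysis was possible because the groups compared share no replicate number. Depth limits mostly the genes near the floor of 3 counts.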

Other observations

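Some members of the disease-associated list had large fold changes that missed the adjusted limit and are named here after their values were seen. Gpnmb, a glycoprotein of phagocytes under lysosomal stress, was at 2.39, 0 and 3.56 CPM in ARG1- and 52.6, 24.4 and 24.8 CPM in ARG1+ microglia (adjusted p = 0.0876 in edgeR). Lgals3, which encodes galectin-3, was at 1.75, 3.17 and 0.869 and 7.24, 10.3 and 9.13 CPM (adjusted p = 0.0606), and Itgax, the integrin CD11c, at 2.296, 0.152 and 3.39 and 19.2, 12.7 and 6.69 CPM (adjusted p = 0.137). All 3 ARG1+ libraries lay above the ARG1- libraries for each gene, and the spread between libraries was wide. Neat1, a nuclear long RNA, was at 1.93, 12.8 and 7.68 and 36.5, 40.3 and 59.1 CPM (adjusted p = 0.0522).

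Beyond protein-coding genes (346 of the 452 higher and 480 of the 501 lower), the calls included 48 genes of the provisional class TEC that were higher and 2 that were lower, 20 antisense genes higher and 10 lower, and 8 sense-intronic genes higher. The strand setting of the counting is not given in the sources used here, so antisense and intronic genes cannot be told apart from their overlapping partners.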
